A study of Carica papaya with 12 samples.

Results

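The starch synthase genes and the UDP-glucose pyrophosphorylase gene of papaya fruit flesh were followed through 4 groups of fruit. They were chosen by identifier: probable starch synthase 4 (SS4, TRINITY_DN893_c2_g1), granule-bound starch synthase 1 (GBSS1, TRINITY_DN5853_c0_g2) and UTP-glucose-1-phosphate uridylyltransferase, also called UDP-glucose pyrophosphorylase (UGPase, TRINITY_DN1177_c0_g1). Every isoform under these 3 Trinity genes was taken, 25 of the 180368 isoforms in the assembly, and the 3 genes are 3 of its 75259. SS4 had 12 isoforms, GBSS1 had 2 and UGPase had 11. All but UGPase i48 had at least 1 rounded count in some library. A gene sum is the count added up over all isoforms of a Trinity gene, and an isoform is written by the last part of its identifier (i31).

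Starch is built inside plastids from ADP-glucose. Soluble starch synthases such as SS4, which in Arabidopsis is needed to start granules, lengthen the glucan chains, and granule-bound starch synthase makes amylose, the mostly unbranched part of the granule. UGPase works in the cytosol, where it joins UTP and glucose 1-phosphate into UDP-glucose in a reversible reaction, so it stands between sucrose synthase, sucrose and cell wall synthesis. Papaya flesh holds little starch and is sweet through its soluble sugars.

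The fruits came from 2 commercial papaya varieties, the red-fleshed ‘RB1’, with a sweet flavour and floral aroma, and the yellow-fleshed ‘1B’, which is bitter and musty. RNA of the flesh was sequenced from 3 unripe and 3 ripe fruits of each variety, each fruit a biological replicate, so that the groups were ‘RB1’ unripe, ‘RB1’ ripe, ‘1B’ unripe and ‘1B’ ripe, 12 libraries in all. All fruits came from 1 commercial plantation, all were treated with the fungicide Sportak, and the reads of both varieties went into 1 assembly. The paper harvested at stages 1 and 3 of its ripening index, mature green and partly coloured, so ripe does not mean fully ripe here.

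Total counts per library ran from 10949263 in ‘RB1’ ripe replicate 2 to 60100478 in ‘1B’ ripe replicate 2. ‘RB1’ ripe replicate 3 stood apart from the other ripe ‘RB1’ fruits and was treated as an outlier when the data were first analysed. The comparisons here therefore use ‘RB1’ ripe replicates 1 and 2, and the values of replicate 3 are given beside the gene sums and beside several of the isoforms and other genes that turn on ripe ‘RB1’. The factors of the TMM scaling, which adjusts library sizes for their composition, were 1.32 to 1.47 in ripe ‘1B’ and 0.658 to 0.675 in unripe ‘1B’, against 0.929 to 1.18 in ‘RB1’, so the change with ripening in ‘1B’ depends on this scaling more than the other comparisons do. The RNA quality scores recorded for the 3 unripe ‘1B’ extractions also stood above those of all other libraries, which touches the unripe comparison, ripening in ‘1B’ and the interaction, and their part in the results was not tested. The identifiers were paired with names only for a list of sugar and aroma transcripts, so markers of the flesh could not be checked here. In RNA of whole flesh, fewer cells of a type and less RNA per cell cannot be told apart.

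GBSS1 changed most, and in opposite directions in the 2 varieties. Its gene sum, in CPM, counts brought to a common library size with TMM factors over all 12 libraries, was 4.10, 3.15 and 2.73 CPM in the unripe ‘RB1’ fruits. It was 47.4 and 36.6 CPM in ripe ‘RB1’ replicates 1 and 2, and 1.62 CPM in replicate 3. In ‘1B’ it was 30.1, 30.3 and 27.8 CPM in the unripe fruits and 7.42, 6.92 and 5.22 CPM in the ripe fruits. The order therefore turned with the stage: ‘1B’ was high when unripe and ‘RB1’, leaving out replicate 3, was high when ripe, with no overlap between any of these groups. ‘RB1’ ripe replicate 3 lay below every unripe ‘RB1’ fruit. A further gene without a name here, TRINITY_DN5853_c0_g1, was placed by Trinity in the same component. It was at 9.97 to 12.2 CPM in unripe ‘RB1’, 8.47 and 6.45 CPM in ripe ‘RB1’ replicates 1 and 2, and 16.4 CPM in replicate 3. In ‘1B’ it was at 14.5 to 15.9 CPM when unripe and 7.67 to 9.14 CPM when ripe. The GBSS1 levels and folds given here are therefore those of its own Trinity gene, without this partner.

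**Figure D1:**
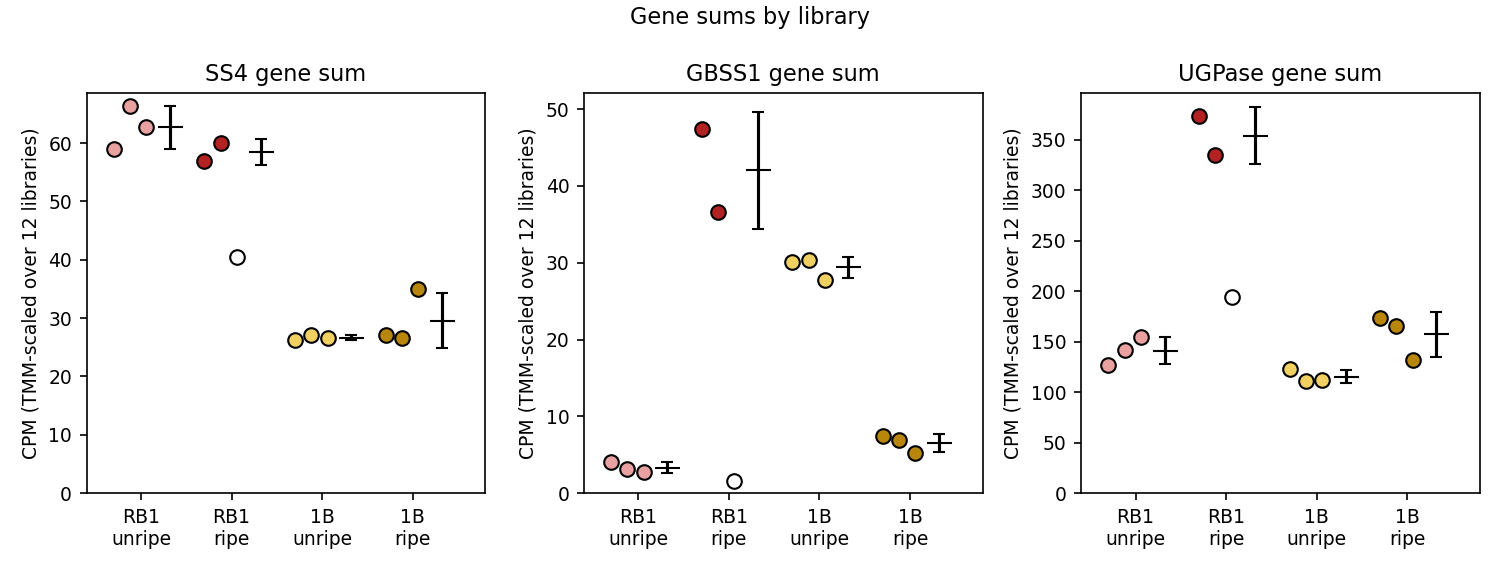
Gene sums of SS4, GBSS1 and UGPase in CPM (TMM-scaled over 12 libraries, linear axis from 0) in each of the 12 libraries; the bars give the mean and SD of the group, and the open circle is ‘RB1’ ripe replicate 3, which is not in the mean. GBSS1 was at 2.73 to 4.10 CPM in unripe ‘RB1’ and at 27.8 to 30.3 CPM in unripe ‘1B’, while SS4 was at or above 56.9 CPM in the ‘RB1’ fruits used and at or below 34.9 CPM in ‘1B’.

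Differences between varieties are given as ‘1B’ over ‘RB1’ and those with stage as ripe over unripe, on the log2 scale, from edgeR's quasi-likelihood test fitted to all gene sums (Benjamini-Hochberg adjustment over every gene sum tested). A gene passed the threshold when its adjusted p was under 0.05 and its log2 change exceeded 1.5 in size. Between unripe fruits, GBSS1 was 3.16 ± 0.111 (SE) higher in ‘1B’ on the log2 scale (adjusted p = 1.25e-15), which was the only one of the 3 genes past the threshold, where 15.1% of 23956 gene sums passed and 7.85% were higher in ‘1B’. In ripe fruit it was −2.69 ± 0.165 in ‘1B’ (adjusted p = 8.92e-16), and 29.5% of 34437 gene sums passed, with 11.6% lower in ‘1B’. The list that named these genes was itself chosen for differences between the ripe varieties, so the ripe comparison is not independent evidence of its direction. Ripening changes and the interaction use the same ripe libraries, so they are not fully independent of that choice either.

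With ripening, GBSS1 rose by 3.703 ± 0.137 on the log2 scale in ‘RB1’ (adjusted p = 3.85e-17), again the only one of the 3 genes past the threshold, against 19.3% of 26265 gene sums, 10.2% higher when ripe. In ‘1B’ it fell by 2.19 ± 0.114 (log2 −2.19, adjusted p = 3.01e-10), and there 25.8% of 28998 gene sums passed, 10.2% lower when ripe. The ripening change in ‘1B’ minus that in ‘RB1’, the interaction of variety and stage, was −5.85 ± 0.202 (adjusted p = 1.92e-21), and 33.2% of 36566 gene sums passed that test, 13% with a lower value. GBSS1 was the only gene of the 3 to pass in each of the 5 comparisons. With ‘RB1’ ripe replicate 3 kept, the difference between ripe varieties was −2.15 (adjusted p = 0.120) and the rise in ‘RB1’ was 3.11 (adjusted p = 0.139), so both calls rest on leaving that library out. Without TMM scaling, the fall in ‘1B’ was −1.12, below the fold threshold.

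With TMM scaling of the counts, SS4 separated the varieties at both stages, and its change with stage did not pass the test. Its gene sum was 59.0, 66.4 and 62.7 CPM in unripe ‘RB1’ and 56.9 and 60.03 CPM in ripe ‘RB1’ replicates 1 and 2, with 40.5 CPM in replicate 3. In ‘1B’ it was 26.3, 27.1 and 26.6 CPM in unripe fruit and 27.2, 26.5 and 34.9 CPM in ripe fruit. In CPM, every ‘1B’ fruit was below every ‘RB1’ fruit, replicate 3 included. In TMM-scaled TPM the ripe fruits overlapped. There ‘1B’ ripe replicate 3, at 10.9, was above ‘RB1’ ripe replicates 1 and 3, at 10.7 and 9.29. The difference between varieties in edgeR was −1.29 ± 0.071 on the log2 scale in unripe fruit (adjusted p = 1.87e-12) and −0.98 ± 0.155 in ripe fruit (adjusted p = 2.14e-06), both short of the fold threshold. In limma on the log2 of the TMM-scaled TPM plus 0.1 the ripe difference was −0.36 (adjusted p = 0.0719). At an adjusted p under 0.05 alone, 57.1% of all gene sums differed in unripe and 55.4% in ripe fruit.

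The change of SS4 with ripening was −0.13 ± 0.0965 in ‘RB1’ (adjusted p = 0.272) and 0.13 ± 0.101 in ‘1B’ (adjusted p = 0.278), and neither passed edgeR's test. The interaction was 0.30 ± 0.158 (adjusted p = 0.109). The direction in ‘1B’ turned when ‘1B’ ripe replicate 3, its highest library, was left out (−0.04), and it was 1.19 without TMM scaling (adjusted p = 2.73e-09), where the median over all gene sums rose from 0.22 to 1.28. In limma on the log2 of the TMM-scaled TPM the change in ‘1B’ was 0.88 with 1 added (adjusted p = 4.14e-05) and 0.99 with 0.1 added (adjusted p = 4.79e-05). When only gene sums with at least 1 CPM in at least 2 libraries were tested, it was 0.36 in ‘1B’ (adjusted p = 0.00791) and −0.31 in ‘RB1’ (adjusted p = 0.00508), all of them below the fold threshold. The interaction was likewise 1.10 without TMM scaling (adjusted p = 1.00e-07), where that median rose from 0.47 to 1.28, and 1.27 on the TPM scale (adjusted p = 6.83e-05). Trinity placed another gene without a name here, TRINITY_DN893_c2_g2, in the same component, and its gene sum was 114 to 127.8 CPM in unripe ‘1B’ against 60.5 to 64.1 CPM in unripe ‘RB1’, the opposite order to SS4. Added over the whole component, a choice made after the data were seen, unripe ‘1B’ was 0.15 above ‘RB1’ on the log2 scale (adjusted p = 0.0495), so the lower SS4 of unripe ‘1B’ holds for this Trinity gene and not for its component.

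UGPase had the most counts of the 3 and rose with ripening in both varieties at an adjusted p under 0.05, short of the fold threshold. Its gene sum was 127, 142 and 155 CPM in unripe ‘RB1’, 374 and 334 CPM in ripe ‘RB1’ replicates 1 and 2, and 194 CPM in replicate 3. In ‘1B’ it was 123, 111 and 112 CPM when unripe and 174, 166 and 132 CPM when ripe. In CPM, ripe fruits were above unripe fruits of the same variety in every library, and ripe ‘RB1’, replicate 3 included, was above ripe ‘1B’. In TMM-scaled TPM, ‘RB1’ ripe replicate 3, at 39.7, was below ‘1B’ ripe replicates 1 and 2, at 47.9 and 46.8. The rise with ripening in edgeR was 1.30 ± 0.104 on the log2 scale in ‘RB1’ (adjusted p = 1.08e-10) and 0.43 ± 0.101 in ‘1B’ (adjusted p = 0.00186).

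Between varieties, UGPase was −1.17 ± 0.177 in ripe ‘1B’ (adjusted p = 9.91e-07) and −0.35 ± 0.0759 in unripe ‘1B’ (adjusted p = 0.000555). The smaller rise in ‘1B’ gave an interaction of −0.83 ± 0.169 (adjusted p = 0.000114). All 5 values of UGPase were below the fold threshold, and the interaction depended on the scaling: it was −0.03 without TMM scaling and 0.07 in limma on the log2 of the TMM-scaled TPM plus 0.1. With ‘RB1’ ripe replicate 3 kept, the rise in ‘RB1’ was 1.10 (adjusted p = 0.0853) and the interaction −0.64 (adjusted p = 0.109). The rise in ‘1B’ was 1.502 without TMM scaling, relative to the median of 1.28 over all gene sums.

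**Figure D2:**
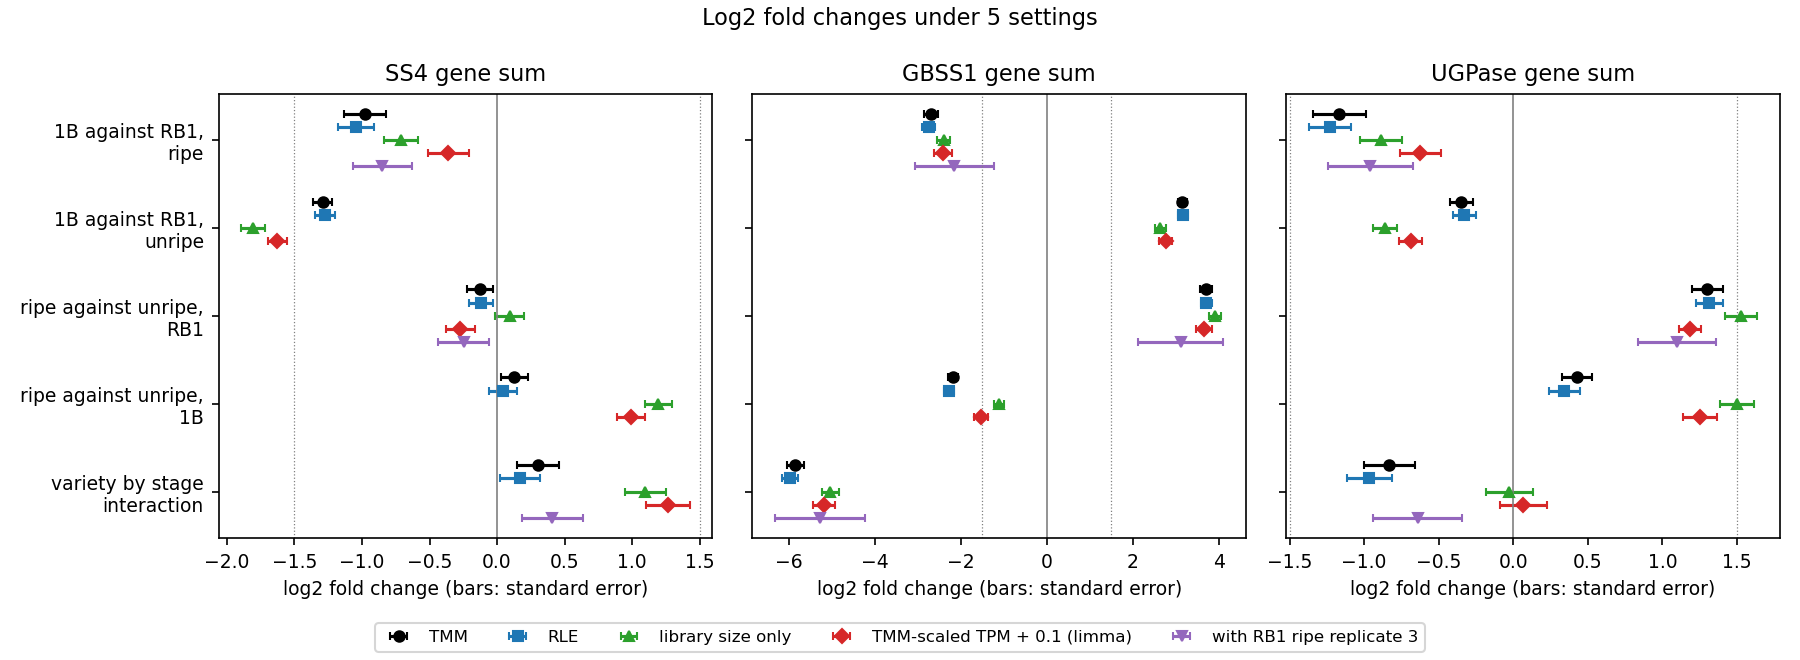
Log2 fold changes with standard errors of the 3 gene sums in the 5 comparisons under 5 settings, one marker for each setting; dotted lines mark the fold threshold of 1.5. GBSS1 kept its direction in all 5 settings shown, while the interaction of UGPase moved from −0.83 with TMM to 0.07 on the TPM scale, and SS4 in ripening ‘1B’ moved from 0.13 to 1.19 without TMM scaling.

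Levels of different genes can be set side by side only per length, in TPM, a length-corrected share of transcripts, which the authors scaled by TMM. A ratio of 2 genes within a library does not depend on the scaling between libraries. The GBSS1 level over the SS4 level was 0.04995 to 0.0777 in the 3 unripe ‘RB1’ fruits, 1.18 and 0.866 in ripe ‘RB1’ replicates 1 and 2, and 0.0421 in replicate 3. In ‘1B’ the ratio was 1.362 to 1.46 in unripe and 0.151 to 0.297 in ripe fruit. GBSS1 was thus above SS4 in all unripe ‘1B’ fruits and in ripe ‘RB1’ replicate 1, and below it in the other 8 libraries.

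UGPase was the highest of the 3 genes per length in every library, at 16.8 to 68.7 TPM. Its ratio to SS4 was 2.02 ± 0.158 (SD, n = 3) in unripe ‘RB1’ and 5.56 ± 0.651 (n = 2) in ripe ‘RB1’, with 4.28 in replicate 3. In ‘1B’ the ratio was 3.91 ± 0.381 in unripe and 4.75 ± 1.26 in ripe fruit (SD, n = 3 each), where ‘1B’ ripe replicate 3, at 3.30, lay below the 3 unripe fruits. The 2 stages therefore did not overlap in ‘RB1’ and overlapped in ‘1B’. With 3 fruits against 3, an exact two-sided permutation test of such a ratio cannot give a p below 0.1, and none is given.

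The isoforms showed where within each gene the counts lay. Salmon divides reads that fit several isoforms between them, so the shares below are estimates, and an isoform's share can move to a close relative. Among the isoforms of the 3 genes, 7 of 20 tested passed the threshold between ripe varieties, 3 up and 4 down, where 16.3% of all isoforms tested passed (9.23% up, 7.1% down). The 3 genes came from the study's list of transcripts that differed between the ripe varieties, which holds SS4 i31, GBSS1 i2 and UGPase i49 and i55. This ripe count and the ripe tests of those isoforms are therefore not independent evidence. The ripening and interaction counts share the ripe libraries and are not fully independent of the choice. In unripe fruit 3 of 16 passed, all up in ‘1B’ (12.8% of all, 6.27% up), with ripening in ‘RB1’ 3 of 18, all up (4.79% of all, 2.38% up), and in the interaction 2 of 23, both down (8.9% of all, 4.21% down). With ripening in ‘1B’ 0 of 16 passed, where 18.8% of all isoforms did, although 4 of the 16 had an adjusted p under 0.05, as did 29.3% of all. With ‘RB1’ ripe replicate 3 kept, 0 isoforms of the 3 genes passed for ripening in ‘RB1’ and for the interaction, where 0 of all 62803 and 4300 of all 91774 isoforms tested passed.

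The 2 GBSS1 isoforms differed in how widely their levels ranged. The isoform i2 was at 0.843, 1.09 and 0.780 CPM in unripe ‘RB1’, 45.8 and 35.6 CPM in ripe ‘RB1’ replicates 1 and 2, and 0.132 CPM in replicate 3. In ‘1B’ it was at 16.2, 17.5 and 16.1 CPM when unripe and 1.71, 2.13 and 0 CPM when ripe. The isoform i1 spanned a narrower range, 1.95 to 3.26 CPM in unripe and 1.03 to 1.61 CPM in all 3 ripe ‘RB1’ fruits, and 11.7 to 13.9 CPM in unripe and 4.80 to 5.71 CPM in ripe ‘1B’. For i1, then, ‘RB1’ ripe replicate 3, at 1.49 CPM, lay between the other ripe ‘RB1’ fruits.

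As a share of the gene's counts, i2 made up 27.9 ± 7.02% in unripe ‘RB1’ (SD, n = 3), 96.9 ± 0.409% in ripe ‘RB1’ (n = 2), 56.6 ± 2.38% in unripe ‘1B’ and 17.9 ± 15.98% in ripe ‘1B’ (n = 3 each). The share was 8.11% in ‘RB1’ ripe replicate 3 (95% Wilson interval 4.33 to 15.7%) and 0 in ‘1B’ ripe replicate 3, where the interval reached 1.01%; these intervals cover counting error only. By the relation of counts to TPM, the effective length of i2 was 0.727 of that of i1. Ripe ‘RB1’ replicates 1 and 2 used almost only the shorter form, and the other 10 libraries held a mixture or mostly the longer one.

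On their own, i2 rose by 5.46 ± 0.243 on the log2 scale with ripening in ‘RB1’ (adjusted p = 0.0035) and i1 changed by −0.90 ± 0.474 (adjusted p = 0.356). Keeping replicate 3, the rise of i2 was 4.88 (adjusted p = 0.539). Between unripe fruits both were higher in ‘1B’, i2 by 4.13 ± 0.178 (adjusted p = 0.000155) and i1 by 2.34 ± 0.245 (adjusted p = 0.00223). Between ripe fruits i1 was higher in ‘1B’, at 2.10 ± 0.365 (adjusted p = 0.0273), although the gene sum was lower. This call was lost without ‘1B’ ripe replicate 1 (adjusted p = 0.0644) or replicate 3 (adjusted p = 0.0577). The isoform i2, which is on the study's list of ripe differences, did not pass here between ripe fruits, at −4.87 ± 1.68 (adjusted p = 0.122). With ripening in ‘1B’, i1 was −1.18 ± 0.112 (adjusted p = 0.00134), below the fold threshold, and i2 −3.59 ± 1.39 (adjusted p = 0.115). The interaction of i2 was −8.85 ± 1.78 (adjusted p = 0.0122), that of i1 was −0.11 ± 0.346 (adjusted p = 0.976).

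**Figure D3:**
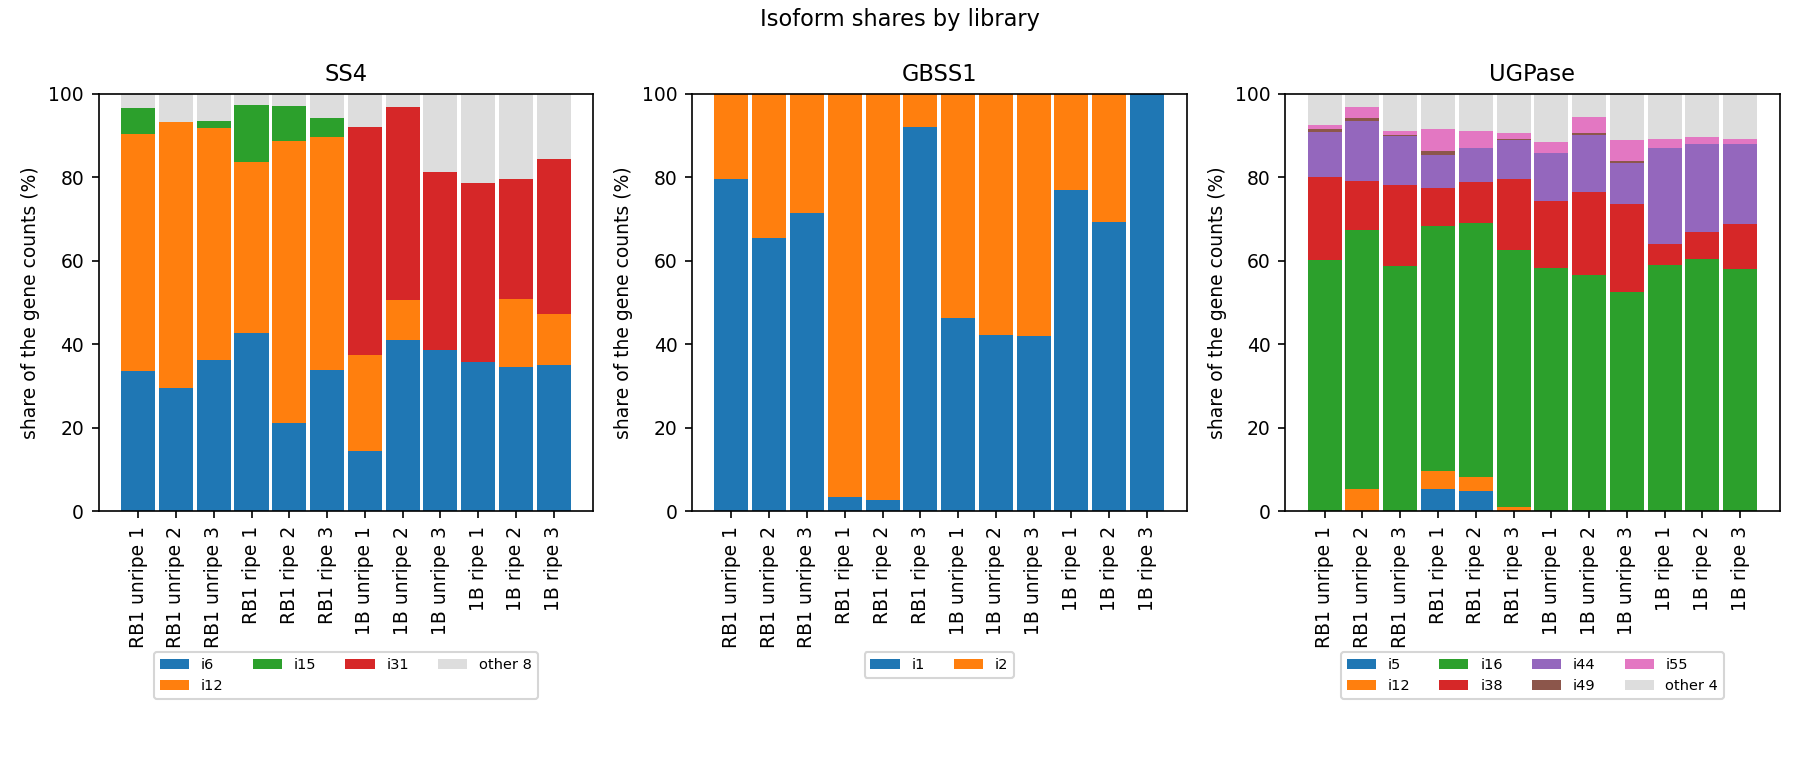
Share of each gene's counts (%) held by its isoforms in the 12 libraries, stacked to 100%; the isoforms named in the legend are coloured and the others are grey. SS4 i31 appears in the 6 ‘1B’ libraries and in no ‘RB1’ library, GBSS1 i2 fills 96.6 and 97.2% of ripe ‘RB1’ replicates 1 and 2, and UGPase i16 holds 52.5 to 61.9% of every library.

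The SS4 isoforms divided by variety. The isoform i31 had counts in all 6 ‘1B’ libraries and in none of the 6 ‘RB1’ libraries. It was at 14.4, 12.5 and 11.3 CPM in unripe and 11.6, 7.66 and 12.9 CPM in ripe ‘1B’. Its share of the gene was 47.8 ± 6.18% in unripe and 36.2 ± 7.01% in ripe ‘1B’ (SD, n = 3 each), while the 0 of each ‘RB1’ library allowed at most 0.493% (upper Wilson bound, reached in the shallowest library). Set against 3 counts over the whole ‘RB1’ group, i31 was at least 549-fold higher in unripe ‘1B’ (adjusted p = 0.000486) and at least 224-fold higher in ripe ‘1B’ (adjusted p = 0.00866). These bounds, and those given for other isoforms below, cover counting error only. They do not cover how Salmon divides reads or differences between fruits.

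In ‘RB1’ the largest isoform by group mean was i12, with 58.6 ± 4.38% of the gene in unripe (n = 3) and 54.3 ± 18.7% in ripe fruit (SD, n = 2), although in ripe replicate 1 it held 41.1% and i6 42.6%. In ‘1B’ it held 10.9 ± 11.51% in unripe and 9.51 ± 8.47% in ripe fruit and was at 0 in 1 library of each stage. Its difference did not pass the test, at −3.73 ± 1.34 in unripe (adjusted p = 0.124) and −3.31 ± 1.80 in ripe fruit (adjusted p = 0.273). The isoform i15 had counts in 5 of 6 ‘RB1’ libraries and none in ‘1B’. In ripe fruit i15 was at least 508-fold below ‘RB1’ in the ‘1B’ libraries (adjusted p = 0.0182), a call lost without ‘RB1’ ripe replicate 1 (adjusted p = 0.0634) or 2 (adjusted p = 0.0634).

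The isoform i6 was common to both varieties, with 14.4 to 42.6% of SS4 in all 12 libraries, and its difference passed in no comparison, the nearest being −1.357 ± 0.409 in unripe fruit (adjusted p = 0.0756). The effective lengths of i12, i15 and i31 were 1.06, 1.08 and 1.06 of that of i6, so these 4 were alike in length. The other 8 isoforms held 0 to 6.37% each as group means. Of these, i26 was at 0 in ripe ‘RB1’ replicates 1 and 2 and had 197 counts over ripe ‘1B’, at least 17.4-fold higher (adjusted p = 0.0298); it is outside the rule for named isoforms and was chosen after its values were seen.

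UGPase kept 1 leading isoform. The share of i16 was 60.2 ± 1.65% in unripe ‘RB1’, 59.6 ± 1.34% in ripe ‘RB1’ (n = 2), 55.7 ± 2.87% in unripe ‘1B’ and 59.1 ± 1.21% in ripe ‘1B’ (SD, n = 3 where not given). Its own changes followed the gene sum: 1.30 ± 0.105 with ripening in ‘RB1’ (adjusted p = 0.00907), 0.64 ± 0.136 in ‘1B’ (adjusted p = 0.0194), and −1.06 ± 0.186 between ripe varieties (adjusted p = 0.0278).

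Below i16, the isoforms i38 and i44 changed places in ‘1B’. The share of i38 was 16.1, 19.9 and 21.04% in unripe and 5.16, 6.55 and 10.8% in ripe ‘1B’. The share of i44 was 11.51, 13.8 and 9.90% in unripe and 22.999, 21.04 and 19.2% in ripe ‘1B’. The stages did not overlap for either isoform, and i38 was the larger in each unripe and i44 in each ripe ‘1B’ fruit. In ripe ‘RB1’ replicates 1 and 2, i44 held 7.96 and 8.01% and i38 8.92 and 9.95%, against 9.33% and 16.8% in replicate 3, and in unripe ‘RB1’ i38 ranged from 11.8 to 19.8% and i44 from 10.9 to 14.3%.

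As levels, i44 rose by 1.41 ± 0.210 with ripening in ‘1B’ (adjusted p = 0.00578) and i38 was −0.83 ± 0.192 (adjusted p = 0.0246), each under the fold threshold. The isoforms i5, i38, i44 and i55 had effective lengths 1.60 to 1.65 times that of i16. Together these 4 held 26.8 to 37.5% of the gene in all 12 libraries, 30.9 ± 1.65% in unripe ‘RB1’, 27.1 ± 0.337% in ripe ‘RB1’ (n = 2), 34.6 ± 3.84% in unripe ‘1B’ and 30.2 ± 0.936% in ripe ‘1B’ (SD, n = 3 where not given). Ripe ‘1B’, at 29.3 to 31.2%, thus overlapped with unripe ‘RB1’, at 29.02 to 31.95%, in the total of the long forms, while the share of i44 was 19.2 to 22.999% in the former and 10.9 to 14.3% in the latter.

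Of the smaller UGPase isoforms, i55, which is on the study's list, was at 19.0 and 13.8 CPM in ripe ‘RB1’ replicates 1 and 2, 2.93 CPM in replicate 3 and 1.27 to 5.73 CPM in the other 9 libraries. Its change with ripening in ‘RB1’, 2.84 ± 0.616, did not pass (adjusted p = 0.0698). Its interaction was −3.31 ± 0.744 (adjusted p = 0.0216), and was lost without ‘RB1’ ripe replicate 1 (adjusted p = 0.0587) and with replicate 3 kept (adjusted p = 0.107). Between ripe varieties it was −2.54 ± 0.425 (adjusted p = 0.0257), and that call was lost when any of ‘RB1’ ripe replicates 1 and 2 and ‘1B’ ripe replicates 1 and 2 was left out (adjusted p from 0.0529 to 0.0718) or replicate 3 of ‘RB1’ was kept (adjusted p = 0.140). The isoform i49, also on the study's list, held 1.09 and 0.142% of the gene in ripe ‘RB1’ replicates 1 and 2 and 0.0168, 0 and 0% in ripe ‘1B’. Unripe ‘RB1’, at 0.681, 0.499 and 0.335%, lay between those ripe ‘RB1’ fruits (adjusted p = 0.389 for ripening). Its difference between ripe varieties did not pass, with an adjusted p just above the threshold (−7.73 ± 1.83 on the log2 scale, adjusted p = 0.05003).

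The isoforms i5, i12 and i25 are outside the naming rule and were chosen after their values were seen. Counts of i5 occurred only in ripe ‘RB1’ replicates 1 and 2, at 19.99 and 15.9 CPM or 5.35 and 4.75% of the gene. It was at least 774-fold higher than in unripe ‘RB1’ (adjusted p = 0.0128) and at least 1434-fold higher than in ripe ‘1B’ (adjusted p = 0.0116). The isoform i12 of UGPase had counts in 4 ‘RB1’ libraries and in no ‘1B’ library, and in ripe ‘1B’ was at least 1124-fold below ripe ‘RB1’ (adjusted p = 0.0131). The isoform i25 rose by 1.64 ± 0.239 with ripening in ‘RB1’ (adjusted p = 0.0308). With ‘RB1’ ripe replicate 3 kept, 0 isoforms passed in that comparison, so the ripening calls of i5 and i25 were lost.

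Whether the shares themselves differed was tested with edgeR's diffSpliceDGE, with the Simes p per gene adjusted over all genes with at least 2 tested isoforms. In ripe fruit the isoform use of SS4 (adjusted p = 0.00575) and UGPase (adjusted p = 8.16e-11) differed between varieties, where 17.7% of 12864 genes did. In unripe fruit that of SS4 differed (adjusted p = 0.000479), where 18.1% of genes did. With ripening UGPase passed in ‘RB1’ (adjusted p = 0.0101, 3.6% of genes) and in ‘1B’ (adjusted p = 0.0421, 16.9% of genes). In the interaction 0 of the 3 passed (7.24% of genes), with an unadjusted p under 0.05 for GBSS1 alone (0.012, adjusted p = 0.1005). On simulated counts of the unripe fruits the Simes test called 66 genes without a change among 9334, so its calls are weak evidence. In that simulation diffSpliceDGE recovered 1% of the 4-fold changes of single isoforms, so missed calls say little. The F test was not simulated.

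Several of these calls rested on single libraries. The ripe SS4 call was lost without ‘RB1’ ripe replicate 1 (adjusted p = 0.291) or 2 (adjusted p = 0.088), and both SS4 calls were lost when isoforms at 0 in a whole group were left out, a choice made after the data were seen (adjusted p = 1.0 in each), as were both UGPase ripening calls. The UGPase call for ‘RB1’ was lost without its ripe replicate 1 (adjusted p = 0.253) or 2 (adjusted p = 0.161), without its unripe replicate 3 (adjusted p = 0.0823) and with ripe replicate 3 kept (adjusted p = 1.0). For ‘1B’ the UGPase call was lost without ripe replicate 2 (adjusted p = 0.164) or unripe replicate 2 (adjusted p = 0.186) or 3 (adjusted p = 0.247). The ripe UGPase call was kept whichever library was left out.

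Another test, limma on the log2 odds of each isoform against the rest of its gene, was added after the data were seen, and in the same simulation it made 0 false calls and recovered 0% of the 4-fold changes. It passed GBSS1 i2 for ripening in ‘RB1’ (6.36 ± 0.390 in log2 odds, adjusted p = 0.0233) and between unripe varieties (1.77 ± 0.299, adjusted p = 0.0188), which the Simes p of diffSpliceDGE did not call (adjusted p = 0.0785 and 0.533), although its F test called the gene in both. It passed SS4 i31 in unripe (adjusted p = 0.000158) and ripe fruit (adjusted p = 0.00286), and UGPase i44 in ripe fruit (1.62 ± 0.284, adjusted p = 0.0296). In ripening ‘1B’ it passed UGPase i44 (1.01 ± 0.235, adjusted p = 0.0473) and i38 (−1.59 ± 0.374, adjusted p = 0.0495). By this test 6 of 20 isoforms of the 3 genes passed in ripe fruit, 3 of 16 in unripe, 3 of 18 with ripening in ‘RB1’, 2 of 16 in ‘1B’ and 1 of 23 in the interaction, against 16.1, 11.6, 2.81, 14.5 and 6.81% of all isoforms tested. The 2 GBSS1 isoforms are mirror images in share, so their 1 change counts for both in the unripe and the ‘RB1’ ripening counts. Ripening in ‘RB1’ gave 0 of 16 once its ripe replicate 3 was kept.

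Other starch genes were taken from the names on the study's list, and all of them were tested. As that list was chosen for differences between the ripe varieties, ripe counts here and in the next paragraphs are not independent of the choice. The ripening and interaction counts use the same ripe libraries, so they are not fully independent of it either. Of the 2 other genes that build starch, ADP-glucose pyrophosphorylase large subunit, part of the enzyme that makes ADP-glucose, was at 14.2 ± 0.318 CPM in ripe ‘1B’ (SD, n = 3) and 4.35 ± 0.353 CPM in ripe ‘RB1’ (n = 2). This difference of 1.68 ± 0.171 on the log2 scale passed the threshold (adjusted p = 2.92e-10) and ran opposite to GBSS1. Starch branching enzyme 2-2, which adds the branches of amylopectin, differed by 0.28 ± 0.151 between ripe varieties (adjusted p = 0.109). In ‘RB1’ ripe replicate 3 the pyrophosphorylase subunit was at 2.05 CPM. Of these 2 genes 1 passed in ripe fruit, where 29.5% of all gene sums did, and 0 in the other 4 comparisons.

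Of 5 genes of starch breakdown and remodelling, 1 passed between ripe varieties (down), 1 between unripe varieties (up), 2 with ripening in ‘RB1’ (1 up, 1 down), 2 in ‘1B’ (both down) and 3 in the interaction (all down), where 29.5, 15.1, 19.3, 25.8 and 33.2% of all gene sums passed. 4-alpha-glucanotransferase DPE1, which recycles short glucans from starch breakdown, fell with ripening in ‘1B’ from 72.8 ± 4.14 to 6.36 ± 1.19 CPM (SD, n = 3 each; −3.54 ± 0.119, adjusted p = 3.15e-12), and its change in ‘RB1’ was −0.32 ± 0.0974 (adjusted p = 0.00748). Isoamylase 3, a debranching enzyme, moved as GBSS1 did, by 1.65 ± 0.217 in ‘RB1’ (adjusted p = 5.66e-07) and −1.70 ± 0.1104 in ‘1B’ (adjusted p = 3.50e-09), on levels of 0.972 to 11.8 CPM, and its fall in ‘1B’ was −0.63 without TMM scaling. It was at 4.58 and 4.03 CPM in ripe ‘RB1’ replicates 1 and 2 and 1.11 CPM in replicate 3. Alpha-amylase 3 fell in ‘RB1’ (−1.65 ± 0.1102, adjusted p = 3.58e-12), to 15.1 and 17.3 CPM in ripe replicates 1 and 2, while replicate 3 was at 36.4 CPM. The median log2 change of the list with ripening in ‘1B’ was −1.13, the value of beta-amylase 7, beside 0.22 over all gene sums. Beta-amylase 7 was also among those that passed in the interaction (−2.09 ± 0.190, adjusted p = 4.39e-11). Alpha-glucan phosphorylase H did not fall with ripening in ‘1B’ (0.03, adjusted p = 0.777). Genes were placed in this list by name, and whether beta-amylase 7 breaks down starch was not tested.

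Of 5 genes that make or use UDP-glucose, 3 passed between ripe varieties (2 up, 1 down), 1 between unripe varieties (down), 3 with ripening in ‘RB1’ (2 up, 1 down), 2 in ‘1B’ (both up) and 3 in the interaction (2 up, 1 down), against the same shares of all gene sums. The sucrose synthase gene TRINITY_DN775_c0_g3, whose enzyme splits sucrose into fructose and UDP-glucose, rose by 1.83 ± 0.104 in ‘RB1’ (adjusted p = 1.74e-13), from 46.0 ± 5.99 to 167 ± 18.005 CPM (SD, n = 3 and 2; replicate 3 was at 41.4 CPM), and was 0.02 ± 0.0943 in ‘1B’ (adjusted p = 0.840). Sucrose synthase 2 went the other way, −3.84 ± 0.187 in ‘RB1’ (adjusted p = 8.20e-15) and 5.62 ± 0.316 in ‘1B’ (adjusted p = 7.20e-10), and ‘RB1’ ripe replicate 3, at 17.1 CPM, was above replicates 1 and 2, at 0.843 and 0.620 CPM. Trehalose-phosphate synthase 1-like, which uses UDP-glucose, rose in both, by 2.26 ± 0.371 (adjusted p = 1.46e-05) and 4.38 ± 0.188 (adjusted p = 3.81e-11). Its level in ‘RB1’ ripe replicate 3, at 0.171 CPM, was below the unripe ‘RB1’ fruits, at 0.185 to 0.449 CPM. With ‘RB1’ ripe replicate 3 kept, 0 of the 5 changes of these 2 lists with ripening in ‘RB1’ passed the threshold, and 296 of all 24979 gene sums did.

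**Figure D4:**
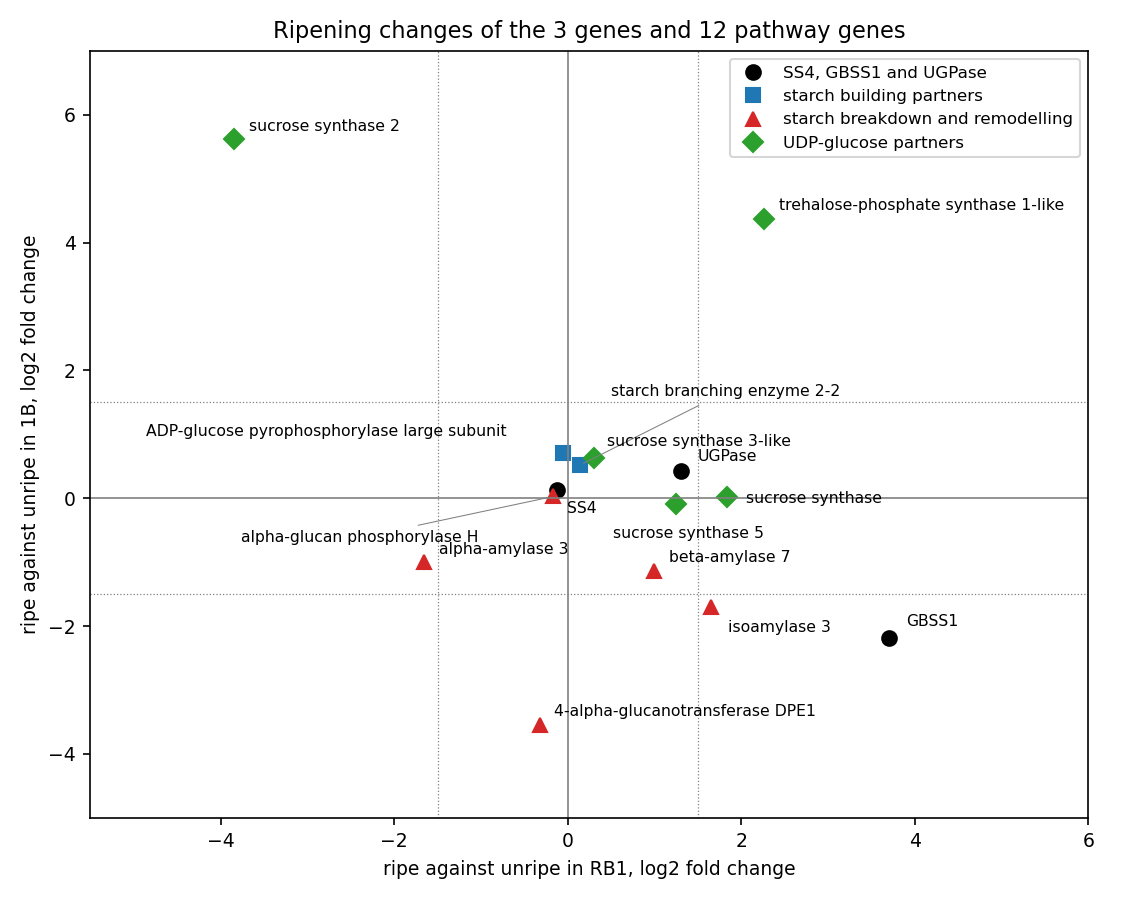
Log2 fold change with ripening in ‘RB1’ (x axis, 5 libraries) and in ‘1B’ (y axis, 6 libraries) of the 3 gene sums (black) and the 12 other starch and UDP-glucose genes; dotted lines mark the fold threshold of 1.5. GBSS1 lies at 3.703 and −2.19 and isoamylase 3 at 1.65 and −1.70, UGPase and sucrose synthase lie to the right near 0 on the y axis, and SS4 lies near the origin.

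The genes most like each of the 3 were sought by Pearson's r of log2(CPM + 1) over the 12 libraries, which share varieties, stages and the scaling, so r is a description. Among the 73 other genes on the study's list, SS4 was most like aldose 1-epimerase (r = 0.955) and acetyl-CoA acetyltransferase, cytosolic 1-like (0.8499). GBSS1 was most like TRINITY_DN7525_c0_g1 (0.981), whose isoforms carry 2 different names, and mitochondrial aldehyde dehydrogenase family 2 member B7 (0.882). UGPase was most like the same sucrose synthase gene (0.908) and sucrose synthase 5 (0.904), and in both ‘RB1’ ripe replicates 1 and 2 were the highest libraries. Among all 13677 gene sums considered the nearest were the unnamed TRINITY_DN2822_c0_g1 for SS4 (0.981), TRINITY_DN2387_c1_g1 for GBSS1 (0.996) and TRINITY_DN5110_c0_g1 for UGPase (0.984). The 3 genes were less like each other, at −0.26 for SS4 and GBSS1, 0.47 for SS4 and UGPase, and 0.28 for GBSS1 and UGPase.

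TRINITY_DN2387_c1_g1 shows how close the GBSS1 pattern was. It was at 3.63 to 3.78 CPM in unripe ‘RB1’, 23.2 and 19.7 CPM in ripe ‘RB1’ replicates 1 and 2, and 2.09 CPM in replicate 3, with 14.3 to 15.7 CPM in unripe and 4.88 to 6.27 CPM in ripe ‘1B’. Of the 3 genes, 3 matched a papaya locus in RefSeq (assembly ASM5485532v1), which lists 4 transcripts and 3 proteins for SS4 and 1 transcript and 1 protein each for GBSS1 and UGPase, beside the 12, 2 and 11 isoforms that Trinity assembled. A Trinity isoform is therefore not the same as an annotated transcript. A further gene in the UGPase component, TRINITY_DN1177_c0_g2, which has no name here, had 662 to 857 counts in ripe ‘1B’ and at most 88 in any other library.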

How the data were processed

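Flesh of 12 papaya fruits was sequenced as bulk RNA. Per the paper's methods, the authors trimmed reads with bbduk and Trimmomatic 0.40, checked them with FastQC 0.11.9, assembled both varieties de novo with Trinity and quantified isoforms with Salmon. No genome build is involved. The deposited estimated counts are per isoform and not normalized; they were summed per Trinity gene and rounded for the tests. The deposited expression signal is TPM scaled by TMM, used for levels per length. All value columns were mapped to samples (0 unmapped).

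Gene sums and isoforms were tested in edgeR 4.0.16 (R 4.3.3; filterByExpr, TMM, quasi-likelihood test, Benjamini-Hochberg over all features tested), with DESeq2 1.42.0 and limma 3.58.1 as alternatives; tables were joined in Python 3.11.15. Each fit used only the groups compared, the interaction used 11 libraries, and ‘RB1’ ripe replicate 3 was left out. Calls needed an adjusted p below 0.05 together with a log2 change over 1.5 in size. Isoform use was tested with diffSpliceDGE. On simulated counts, 89 to 100% of 4-fold changes in gene sums but 14% in isoforms (unripe fruits) were recovered, so missed isoform calls say little.

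The genes and lists were chosen with earlier results of these data known. Isoforms were named if on the study's list or at a mean share of at least 10% in a group; similar genes needed a mean of at least 1 CPM. A fold against a group at 0 used 3 counts over the whole group, which is 0.0125 CPM in ripe ‘1B’ to 0.0478 CPM in ripe ‘RB1’. In single libraries 3 counts would be 0.0340 to 0.232 CPM, and a fold set against that would be smaller. Totals of 10949263 to 60100478 counts set the precision, and intervals (95% Wilson) cover counting error only. No replicates were duplicates. Other filters, scalings, tools, fold thresholds, a replicate block, and leaving out each library were tried. Component sums, use without isoforms at 0 and the log2 odds test were added after seeing the data. Replicates are separate fruits.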

Additional observations from a re-analysis of the deposited data

Results flagged for a closer look

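In 4 results the ripening change differed between the varieties by the interaction test of edgeR (‘1B’ minus ‘RB1’, log2 scale). They were the GBSS1 gene sum (−5.85), its isoform i2 (−8.85), the UGPase gene sum (−0.83, below the fold threshold) and its isoform i55 (−3.31). With ‘RB1’ ripe replicate 3 kept, the GBSS1 gene sum was −5.28 (adjusted p = 0.00211), while i2 was −8.44 (adjusted p = 0.0818), the UGPase gene sum −0.64 (adjusted p = 0.109) and i55 −3.02 (adjusted p = 0.107). Groups of 3 fruits were too small for the test of single outlying samples.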

How the results depend on the processing

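The numbers of the replicates did not pair the samples: correlations of same-numbered deviations ran from −0.07 to 0.19. A replicate block changed no gene-sum call, but left 0 isoforms in ripe fruit (0 of all 88526), 0 for ripening in ‘RB1’ (0 of 70809) and 1 in the interaction (5797 of 103938), and isoform use called 1 gene in ripe fruit, 0 in ‘RB1’ and 0 in ‘1B’. Keeping ‘RB1’ ripe replicate 3 took GBSS1 to −2.15 between ripe varieties and 3.11 for ripening in ‘RB1’, and left 0 isoforms for ‘RB1’ ripening, 0 for the interaction and 0 genes by use in ‘RB1’. Without TMM scaling SS4 was −1.81 in unripe fruit and 0.0942 for ‘RB1’ ripening, GBSS1 −1.12 for ‘1B’ ripening, UGPase 1.53 and 1.502 for ripening in ‘RB1’ and ‘1B’, with 5 isoforms called in ‘RB1’ and 2 in ‘1B’. On the TPM scale SS4 was −1.63 in unripe fruit (plus 0.1), GBSS1 −1.23 for ‘1B’ ripening (plus 1), and the UGPase interaction 0.0513 and 0.0669 (plus 1 and plus 0.1). Centred on the median, SS4 was −0.0883 for ‘1B’ ripening and −0.17 for the interaction. Component sums gave SS4 0.15 in unripe fruit, −0.65 for ‘1B’ ripening and −0.53 for the interaction. The cause was not tested.

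With no fold threshold SS4 passed at −0.98 and −1.29 and UGPase at −1.17, −0.35, 1.30, 0.43 and −0.83, with 4 isoforms in ‘1B’ ripening. Without a filter 4 isoforms passed in ripe fruit; with a filter of 1 CPM 5 passed in ‘RB1’ and 1 in ‘1B’ ripening, and 2 genes by use in ‘RB1’. DESeq2 called 5 isoforms for ‘RB1’ ripening and 5 for the interaction. Use without isoforms at 0 called 1 gene in ripe fruit, 0 in unripe, 0 in ‘RB1’ and 0 in ‘1B’. The F test called 2 in unripe fruit and 1 in the interaction, and log2 odds 2 in unripe, 2 in ‘RB1’ and 1 in the interaction. For ripening in ‘RB1’ the F test called GBSS1 and not UGPase.

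Leaving out each library gave, for ripe, unripe, ‘RB1’, ‘1B’ and interaction in turn, SS4 −1.01 to −0.80, −1.31 to −1.24, −0.23 to −0.09, −0.0412 (without ‘1B’ ripe replicate 3) to 0.18, and 0.17 to 0.39. GBSS1 gave −2.92 to −2.43, 3.05 to 3.29, 3.47 to 3.91, −2.31 to −2.09 and −6.05 to −5.60. UGPase gave −1.31 to −0.96, −0.39 to −0.26, 1.21 to 1.41, 0.33 to 0.50 and −0.95 to −0.71. Isoform counts were 4 to 7, 3 to 5, 1 to 3, 0 to 2 and 1 to 3, and genes by use 1 to 3, 1 to 1, 0 to 1, 0 to 1 and 0 to 1. Depth limits the isoforms most in ‘RB1’ ripe replicate 2.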
